A study of Caenorhabditis elegans with 36 samples.

Results

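The microRNAs mir-48, mir-84 and mir-241 are relatives of let-7 and are known as its sisters. They were taken by name, as cel-mir-48, cel-mir-84 and cel-mir-241, from a table of 250 miRNA hairpins measured in the nematode Caenorhabditis elegans. All 3 had enough counts to be tested, among 193 hairpins that did. The worms were hermaphrodites of N2, the wild-type laboratory strain, and RNA came from the whole animal. One set received rotenone at 100 nM, an inhibitor of complex I of the mitochondrial respiratory chain, and another the solvent DMSO at 0.1 %, each sampled at 6 hours and at 1, 2, 3 and 5 days. A further control of H2O at 0.1 % was sampled at 1 and 5 days. Each of the 12 groups held 3 libraries. The title of the series counts time from treatment, whereas the sample labels enter the same times as age. Whether libraries of 1 group were grown separately is not stated, so p-values may measure technical spread alone.

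The sisters act in the heterochronic pathway, which sets the order of cell fates in the larva. They act redundantly there, and their known target is hbl-1, a transcription factor whose loss lets the epidermal seam cells pass from the fates of the second larval stage to those of the third. let-7 itself acts later and represses lin-41. The steroid hormone receptor DAF-12 controls transcription of the sisters. In adults that lack a germ line, mir-84 and mir-241 have been tied to long life through the same receptor, and mir-84 can also repress let-60, the worm Ras gene. In the RefSeq gene table of assembly WBcel235, mir-48 and mir-241 are next to each other on chromosome V, while mir-84 and let-7 are both on chromosome X and not next to each other.

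Total counts ran from 4361246 to 14960062 in a library. Every library held at least 2446 counts of each sister, so counting error was small beside the spread between libraries in most groups. Where the libraries lay closest, as for mir-84 in rotenone at 3 days, it was of like size. Sequencing put each group on a single lane and never both treatments of the same time together, so lane and treatment cannot be told apart within a time. The 13 marker hairpins of muscle (mir-1), intestine (mir-60), glia (mir-228), neurons (lsy-6 and mir-124) and germ line, oocytes and embryos (mir-35 to mir-42) were present in all 36 libraries, with 0 of them at a count of 0. In whole worms, fewer cells of a type and less of a miRNA per cell cannot be told apart.

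The sisters differed in level and in how far they moved. Levels are CPM, the counts of a hairpin per 1000000 counts of its library after scaling by the trimmed mean of M values (TMM). They join both arms of a hairpin and are not corrected for length. Ranked by mean CPM among the tested hairpins, mir-48 was number 20, mir-84 number 31 and mir-241 number 55. Over the 36 libraries cel-mir-48 ran from 10612 to 21993 CPM, a span of 2.07-fold. For cel-mir-84 the range was 2437 to 6309 CPM, or 2.59-fold. cel-mir-241 covered the widest span of the sisters, from 430 to 1794 CPM, or 4.17-fold.

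**Figure D1:**
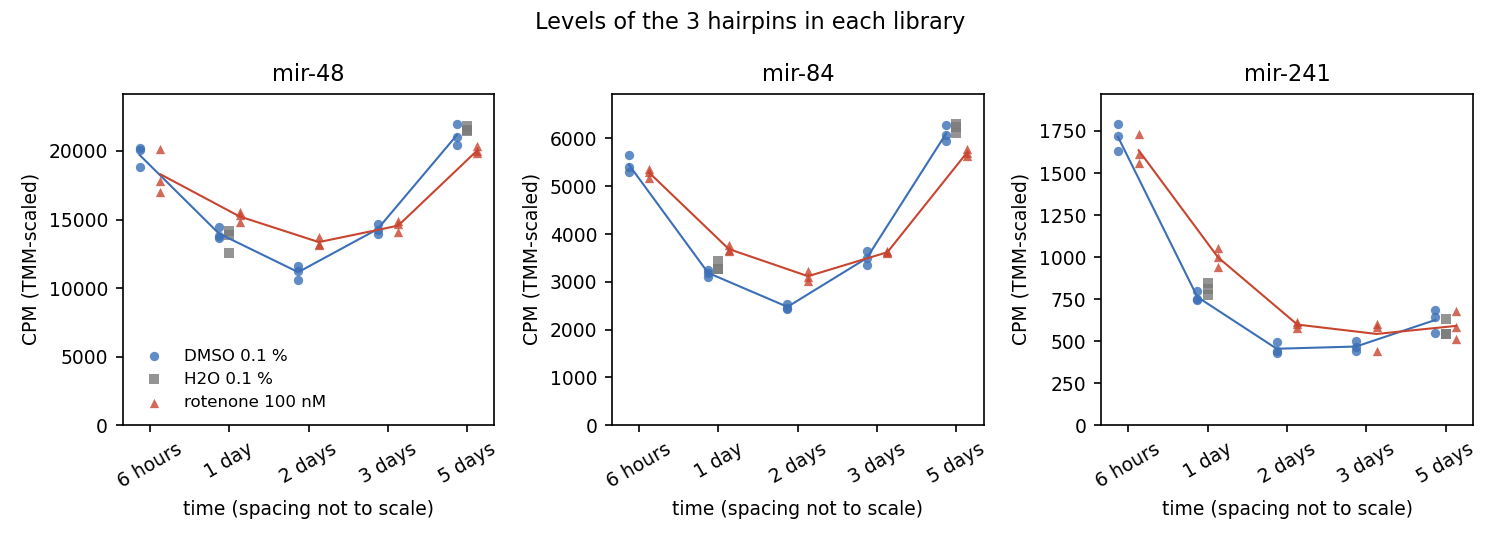
Level of mir-48, mir-84 and mir-241 in each of the 36 libraries, as TMM-scaled CPM on a linear axis from 0, against time (not to scale). Points are libraries and lines join the means of the DMSO and rotenone groups. mir-48 and mir-84 are lowest at 2 days in DMSO and high at 6 hours and at 5 days, whereas mir-241 is high at 6 hours and at most 683 CPM in all libraries from 2 days on.

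In DMSO, all 3 sisters fell from 6 hours to 2 days, and then parted. In CPM, every 5-day library of mir-48 and mir-84 was above those of 6 hours, and every library of mir-241 below them. For mir-48 and mir-84 this order turned without TMM scaling. As a percent of all counts, mir-48 was 2.02 to 2.12% at 6 hours and 1.87 to 1.91% at 5 days. mir-84 was 0.566 to 0.578% and 0.543 to 0.546% at the same times. The DMSO libraries of mir-48 held 18862, 20230 and 20041 CPM at 6 hours and 13684, 14450 and 13815 CPM at 1 day. At 2 days they held 11628, 11248 and 10612 CPM, and at 3 days 14239, 13955 and 14700 CPM. At 5 days they reached 21016, 21993 and 20465 CPM. Libraries of consecutive times did not overlap, while those of 1 and 3 days did, and the 2-day libraries were the lowest of the series for this hairpin.

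mir-84 traced the same curve with a larger swing. It held 5306, 5406 and 5647 CPM at 6 hours in DMSO and 3254, 3111 and 3195 CPM at 1 day. The 2-day libraries had 2544, 2437 and 2447 CPM, and those of 3 days 3353, 3640 and 3494 CPM. At 5 days the values were 6071, 6288 and 5945 CPM. No DMSO libraries of mir-84 overlapped between any pair of times.

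mir-241, the genomic neighbour of mir-48, took another course. It held 1794, 1630 and 1718 CPM at 6 hours in DMSO, 796, 742 and 750.2 CPM at 1 day and 496, 438 and 430 CPM at 2 days. It then stood at 463, 498 and 443 CPM at 3 days and at 646, 683 and 548 CPM at 5 days. The libraries of 2 and 3 days overlapped, and those of 5 days lay above them but below every library of 1 day. 

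Tests came from edgeR's quasi-likelihood fit over all libraries, with Benjamini-Hochberg adjustment over the 193 hairpins and a threshold of 0.05. All 3 sisters fell from 6 hours to 1 day in DMSO, a step at which 34.7% of tested hairpins fell. The log2 change was -0.50 ± 0.054 (SE) for mir-48 (adjusted p = 2.78e-10), -0.78 ± 0.045 for mir-84 (adjusted p = 6.29e-18) and -1.17 ± 0.091 for mir-241 (adjusted p = 3.34e-14). All 3 fell again from 1 to 2 days, at which 25.4% of hairpins fell, by 0.32 ± 0.054 (mir-48), 0.36 ± 0.045 (mir-84) and 0.75 ± 0.091 (mir-241) on the log2 scale, with adjusted p between 1.56e-08 and 4.91e-06. At both steps the estimate of mir-241 was the largest fall of the 3. Of the 13 marker hairpins 3 rose from 1 to 2 days and 0 fell. They were mir-228, lsy-6 and mir-124, and the summed neuronal markers went from 74.0 to 85.3 CPM at 1 day to 106 to 153 CPM at 2 days.

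The same first step changed other parts of the worm's small RNA. The summed level of the mir-35 family, miRNAs of the germ line, oocytes and embryos, was 22054 to 24867 CPM in DMSO and 14776 to 22416 CPM in rotenone at 6 hours, and 92246 to 167381 CPM in all later libraries. The glial mir-228 fell by 0.73 ± 0.11 on the log2 scale over that step in DMSO (adjusted p = 1.20e-07). All 8 members of the mir-35 family rose, and the muscle, intestine and neuron markers did not pass the test there. The part of the markers in the falls of the sisters, at either step, was not tested.

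From 2 to 3 days in DMSO, mir-48 rose by 0.36 ± 0.054 (adjusted p = 8.58e-07) and mir-84 by 0.50 ± 0.045 (adjusted p = 1.10e-11) on the log2 scale, at a step where 24.4% of hairpins rose. mir-241 changed by 0.04 ± 0.091 (adjusted p = 0.745, 95% interval -0.14 to 0.22), a value whose sign turned with total counts in place of TMM. From 3 to 5 days all 3 rose, as did 22.8% of hairpins. The log2 changes were 0.57 ± 0.054 for mir-48 (adjusted p = 2.13e-11), 0.80 ± 0.045 for mir-84 (adjusted p = 2.85e-17) and 0.42 ± 0.092 for mir-241 (adjusted p = 0.000213). With total counts, which moved the median of all hairpins by -0.205 at this step, the rise of mir-241 was 0.21 and did not pass (adjusted p = 0.0586). Of the 13 markers 1 rose and 6 fell from 2 to 3 days, and 0 rose and 10 fell from 3 to 5 days, when the muscle mir-1 went from 449 to 555 CPM down to 288 to 396 CPM. Their part in the rise of the sisters was not tested.

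Rotenone libraries followed a like course. From 6 hours to 1 day mir-48 fell by 0.27 ± 0.054, mir-84 by 0.52 ± 0.045 and mir-241 by 0.71 ± 0.090 on the log2 scale, with adjusted p between 7.84e-13 and 4.96e-05, where 31.1% of hairpins fell. From 1 to 2 days all 3 fell again, as did 22.3% of hairpins. Here mir-48 fell by 0.19 ± 0.054 (adjusted p = 0.00695), mir-84 by 0.24 ± 0.045 and mir-241 by 0.74 ± 0.091. With DESeq2 size factors the change of mir-48 was -0.11 and with total counts -0.10, and neither passed. From 6 hours to 1 day in rotenone 8 of the 13 markers rose, all of the mir-35 family, and 3 fell (mir-60, mir-228 and lsy-6), and 4 rose and 0 fell from 1 to 2 days. Their part in the falls of the sisters was not tested.

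From 2 to 3 days in rotenone 1 of the 3 sisters passed the test, beside 20.2% of hairpins that rose. mir-84 rose by 0.22 ± 0.045 (adjusted p = 0.000216), though with total counts its change was 0.11 and did not pass (adjusted p = 0.0786). mir-48 differed by 0.12 ± 0.054 (adjusted p = 0.0699), and passed when only the groups compared were fitted (0.12, adjusted p = 0.0440). mir-241 differed by -0.14 ± 0.091 (adjusted p = 0.244), and passed with total counts (-0.24, adjusted p = 0.0378). From 3 to 5 days mir-48 rose by 0.46 ± 0.054 and mir-84 by 0.65 ± 0.045 (adjusted p = 3.68e-09 and 6.47e-15), where 21.8% of hairpins rose. mir-241 differed by 0.12 ± 0.092 (adjusted p = 0.274). Among the markers 3 rose and 4 fell from 2 to 3 days in rotenone, and 0 rose and 12 fell from 3 to 5 days, and their part in the changes of the sisters was not tested.

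The span from 1 to 5 days was sampled under all 3 treatments, and it split the sisters the same way in each. mir-48 rose by 0.60 ± 0.054 in DMSO, 0.68 ± 0.054 in H2O and 0.40 ± 0.054 in rotenone on the log2 scale, with adjusted p between 7.52e-14 and 4.48e-08. The rise of mir-84 was 0.94 ± 0.045, 0.91 ± 0.045 and 0.63 ± 0.045, with adjusted p between 2.26e-20 and 3.77e-15. mir-241 fell instead, by 0.29 ± 0.091 in DMSO (adjusted p = 0.00696), 0.51 ± 0.091 in H2O (adjusted p = 8.18e-06) and 0.76 ± 0.092 in rotenone (adjusted p = 3.34e-09). Over this span 28% of hairpins rose and 35.2% fell in DMSO, 27.5% and 30.1% in H2O, and 23.3% and 35.8% in rotenone. Without DMSO replicate 3 of 5 days, the DMSO fall of mir-241 was 0.20 and did not pass (adjusted p = 0.0834). Over this span 0 of the 13 markers rose, while 10 fell in DMSO, 9 in H2O and 7 in rotenone, and their part in the changes of the sisters was not tested.

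These steps compare groups on different lanes, so 2 comparisons of groups that shared a lane were added after the values had been seen. DMSO at 2 and 5 days were both on lane 1. There mir-48 rose 1.90-fold (95% interval 1.76 to 2.05), mir-84 2.46-fold (2.31 to 2.63) and mir-241 1.37-fold (1.21 to 1.56), with adjusted p between 2.93e-24 and 3.33e-05, where 33.2% of hairpins rose. With total counts, which moved the median of all hairpins by -0.275, the log2 change of mir-241 was 0.18 and did not pass. Rotenone at 1 and 3 days were both on lane 8, and 1 of the 3 sisters passed, where 21.2% of hairpins fell. That was mir-241, which fell by 0.88 ± 0.092 on the log2 scale (adjusted p = 2.73e-10), while mir-48 differed by -0.07 ± 0.054 (adjusted p = 0.367) and mir-84 by -0.03 ± 0.045 (adjusted p = 0.734). Among the markers 0 rose and 10 fell between the DMSO groups, and 7 rose and 3 fell between the rotenone groups, and their part in these values was not tested.

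Ordered by group mean, DMSO at 2 days was lowest for all 3 sisters, at 11163 ± 513 (SD, n = 3) CPM for mir-48, 2476 ± 58.9 for mir-84 and 455 ± 36.3 for mir-241. For mir-48 and mir-84 its libraries lay below those of the next group, rotenone at 2 days. Above that, the neighbouring groups of mir-48 from rotenone at 2 days to rotenone at 1 day overlapped, as did those of mir-84 from H2O at 1 day to rotenone at 1 day. For mir-241 they overlapped with DMSO at 3 days, and each neighbour from there up to DMSO at 5 days overlapped with the next. The highest mean of mir-48 was 21604 ± 186 CPM and that of mir-84 was 6217 ± 102 CPM, both in H2O at 5 days and both overlapping with DMSO at 5 days. This rank depended on the scaling. As a percent of all counts mir-48 was highest in DMSO at 6 hours, with 2.06% beside 1.94% in H2O at 5 days. mir-84 was highest in rotenone at 6 hours, with 0.586% beside 0.558% in H2O at 5 days. The highest mean of mir-241 was 1714 ± 81.7 CPM, in DMSO at 6 hours, and overlapped with rotenone at 6 hours.

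Summed, the sisters in DMSO made up 2.82% ± 0.046 (SD, n = 3) of a library's counts at 6 hours, 1.52% ± 0.11 at 2 days and 2.49% ± 0.027 at 5 days. Within that sum the share of mir-241 went from 6.39% ± 0.48 at 6 hours to 2.24% ± 0.18 at 5 days in DMSO, and was 2.02% ± 0.17 in H2O at 5 days. The share of mir-48 was 73.3% ± 0.79 at 6 hours, 79.2% ± 0.49 at 2 days and 75.9% ± 0.084 at 5 days in DMSO. The handling of reads that match more than 1 hairpin is not given in the sources used here. The division of reads among such close relatives is therefore uncertain.

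Ratios of counts within a library need no scaling between libraries, and they show the parting of mir-241 from the other sisters directly. In DMSO there were 11.5 ± 0.95 (SD, n = 3) reads of mir-48 for each read of mir-241 at 6 hours, 18.4 ± 1.1 at 1 day, 24.6 ± 1.1 at 2 days, 30.7 ± 2.6 at 3 days and 34.0 ± 2.9 at 5 days. In rotenone the same numbers were 11.2 ± 0.57, 15.3 ± 1.1, 22.3 ± 0.44, 27.3 ± 5.1 and 34.4 ± 5.1. In H2O they were 16.6 ± 0.45 at 1 day and 37.9 ± 2.9 at 5 days. The mean thus rose at each later time under each treatment. Reads of mir-48 per read of mir-84 stayed within a narrower band. In DMSO the group means were 3.62 ± 0.11 at 6 hours, 4.39 ± 0.23 at 1 day, 4.51 ± 0.15 at 2 days, 4.10 ± 0.23 at 3 days and 3.47 ± 0.028 at 5 days.

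**Figure D2:**
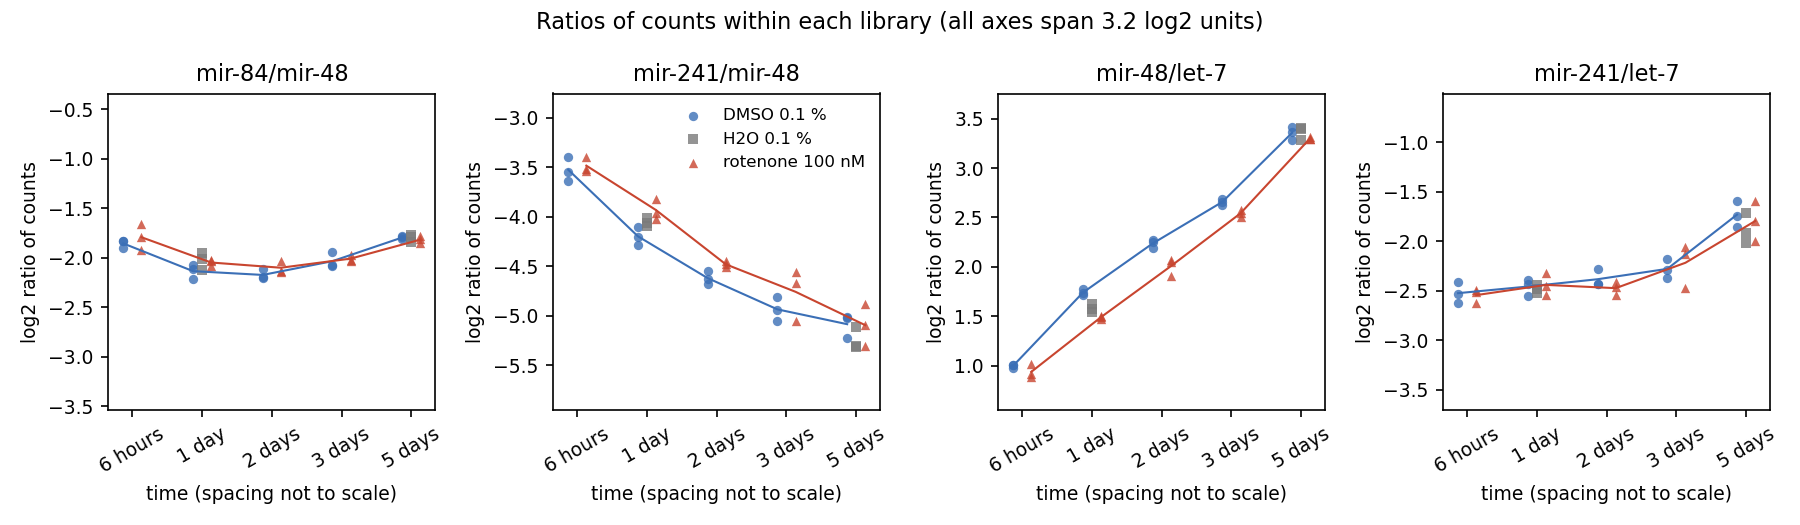
Log2 ratio of counts within each library for mir-84/mir-48, mir-241/mir-48, mir-48/let-7 and mir-241/let-7, against time (not to scale). Points are libraries, lines join the means of DMSO and of rotenone, and all axes span the same number of log2 units. The ratio mir-84/mir-48 is the flattest, mir-241/mir-48 falls with time and mir-48/let-7 rises.

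Changes of these ratios over time were tested after the values had been seen, by exact two-sided permutation of libraries within each treatment, adjusted over 6 ratios. From 1 to 5 days in DMSO, H2O and rotenone, the log2 ratio mir-241/mir-48 changed by -1.08 on average, mir-84/mir-241 by 1.35 and mir-84/mir-48 by 0.27. Each had adjusted exact p = 0.00025, the smallest these permutations can give, with the same sign in 3 of 3 treatments. From 6 hours to 1 day in DMSO and rotenone the changes were -0.56 for mir-241/mir-48, 0.29 for mir-84/mir-241 and -0.27 for mir-84/mir-48. Those had adjusted exact p = 0.006 (unadjusted 0.005, the smallest these permutations can give), with the same sign in 2 of 2 treatments. The ratio of mir-48 and mir-84 thus moved as well, in opposite directions over the 2 spans.

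From 6 hours to 5 days let-7 fell further than any sister, and in DMSO the group means showed this at each step between. In rotenone the step from 1 to 2 days differed. There the log2 ratio of mir-241 to let-7 was -2.44 ± 0.11 (SD, n = 3) at 1 day and -2.47 ± 0.066 at 2 days. The DMSO mean of let-7 went from 9845 to 2067 CPM, and that of mir-241 from 1714 to 626 CPM. The libraries of let-7 ran from 1985 to 10680 CPM, a span of 5.38-fold. Reads of mir-48 per read of let-7 were 2.00 ± 0.023 at 6 hours, 3.34 ± 0.073 at 1 day and 10.2 ± 0.48 at 5 days in DMSO. From 1 to 5 days the log2 ratio to let-7 changed by 1.74 for mir-48, 2.00 for mir-84 and 0.66 for mir-241, each with adjusted exact p = 0.00025. From 6 hours to 1 day it changed by 0.65 for mir-48 and 0.38 for mir-84 (adjusted exact p = 0.006), and by 0.09 for mir-241 (adjusted exact p = 0.14). The ratio of mir-241 to let-7 thus moved less than those of its sisters over both spans.

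The likeness of the courses was described by Pearson's r of mean log2 CPM over the 12 groups, without a p-value, since groups share lanes, controls and the scaling. It was 0.995 between mir-48 and mir-84, 0.344 between mir-48 and mir-241 and 0.357 between mir-84 and mir-241. Between mir-241 and let-7 it was 0.951, and between mir-48 and let-7 0.049. Without the groups of 6 hours r was 0.997 for mir-48 and mir-84, 0.066 for mir-48 and mir-241, and 0.842 for mir-241 and let-7. For mir-48 and let-7 it turned negative, at -0.461. Among 132 hairpins with a mean of at least 10 CPM, those most like mir-48 were mir-84, mir-240 (0.980) and mir-239b (0.971). The hairpins most like mir-84 were mir-48, mir-239b (0.973) and mir-240 (0.967). mir-241 was most like mir-235 (0.983), mir-59 (0.963) and mir-358 (0.958), and none of these names recurs in the lists of its sisters. Without the groups of 6 hours these 3 values were 0.974, 0.903 and 0.879, while those of the hairpins named for mir-48 and mir-84 were at least 0.97.

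**Figure D3:**
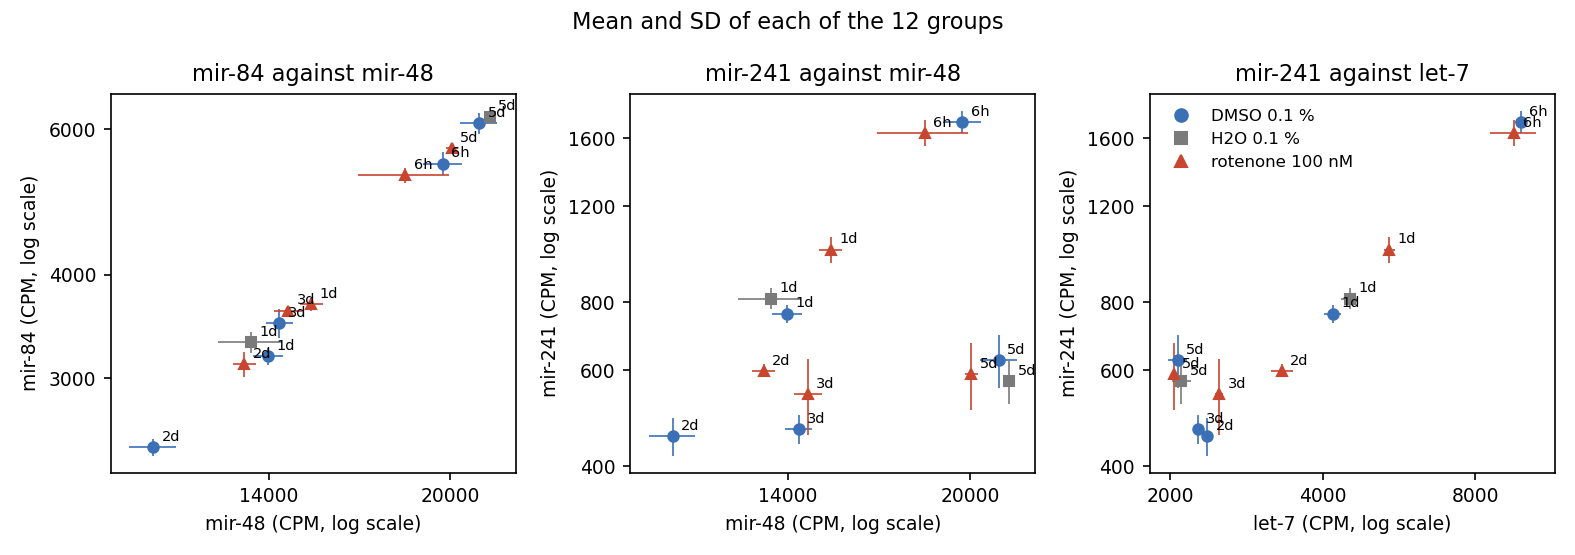
Mean and SD of each of the 12 groups, in CPM on log axes, for mir-84 against mir-48, mir-241 against mir-48 and mir-241 against let-7; colours and shapes mark the treatment and small labels the time. The groups of mir-48 and mir-84 lie along 1 line, those of mir-48 and mir-241 do not, and mir-241 rises with let-7.

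Rotenone was compared with DMSO at each time. mir-84 and mir-241 were higher in rotenone at 1 day and all 3 sisters at 2 days, by up to 1.32-fold, and none passed the test at 6 hours, 3 days or 5 days. The 2-day libraries are given first. mir-48 held 13695, 13209 and 13157 CPM in rotenone and 11628, 11248 and 10612 CPM in DMSO. mir-84 held 3111, 3013 and 3227 CPM against 2544, 2437 and 2447 CPM. mir-241 held 613, 581 and 602 CPM against 496, 438 and 430 CPM. For each sister, every rotenone library was above every DMSO library, which 25.4% of hairpins showed at this time.

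The log2 difference at 2 days was 0.26 ± 0.054 for mir-48 (adjusted p = 0.000218), 0.33 ± 0.045 for mir-84 (adjusted p = 2.63e-07) and 0.40 ± 0.091 for mir-241 (adjusted p = 0.000603), or 1.20, 1.26 and 1.32-fold. At this time 21.2% of tested hairpins were higher and 42.5% differed in either direction. Of the 13 markers 0 were higher and 3 lower in rotenone at 2 days. The glial mir-228 (-0.48 ± 0.10), lsy-6 (-0.71 ± 0.089) and mir-124 (-0.37 ± 0.12), both of neurons, were lower, with adjusted p between 5.43e-08 and 0.0104. The summed neuronal markers stood at 81.6 to 90.6 CPM in rotenone and 106 to 153 CPM in DMSO, and mir-228 at 20378 to 26475 and 27139 to 38809 CPM. Muscle mir-1, intestinal mir-60 and mir-35 differed by 0.02, 0.07 and -0.02, none past the test. The part of these markers in the difference of the sisters was not tested.

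At 1 day 2 of the 3 sisters passed, and 10.4% of hairpins were higher. mir-84 held 3635, 3662 and 3761 CPM in rotenone and 3254, 3111 and 3195 CPM in DMSO. mir-241 held 1053, 1000.3 and 942 CPM in rotenone and 796, 742 and 750.2 CPM in DMSO. mir-48 held 14846, 15532 and 15305 CPM in rotenone and 13684, 14450 and 13815 CPM in DMSO. The rotenone libraries were above the DMSO libraries for all 3, as for 17.6% of hairpins.

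The log2 difference at 1 day was 0.21 ± 0.045 for mir-84 (adjusted p = 0.00129), 0.39 ± 0.090 for mir-241 (adjusted p = 0.00192) and 0.12 ± 0.054 for mir-48 (adjusted p = 0.132, 95% interval 0.01 to 0.23). With total counts the value of mir-84 was 0.13 and missed the threshold (adjusted p = 0.0569). Of the 13 markers 0 passed at 1 day in either direction, with mir-228 at 0.07 ± 0.10 and lsy-6 at -0.11 ± 0.092.

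**Figure D4:**
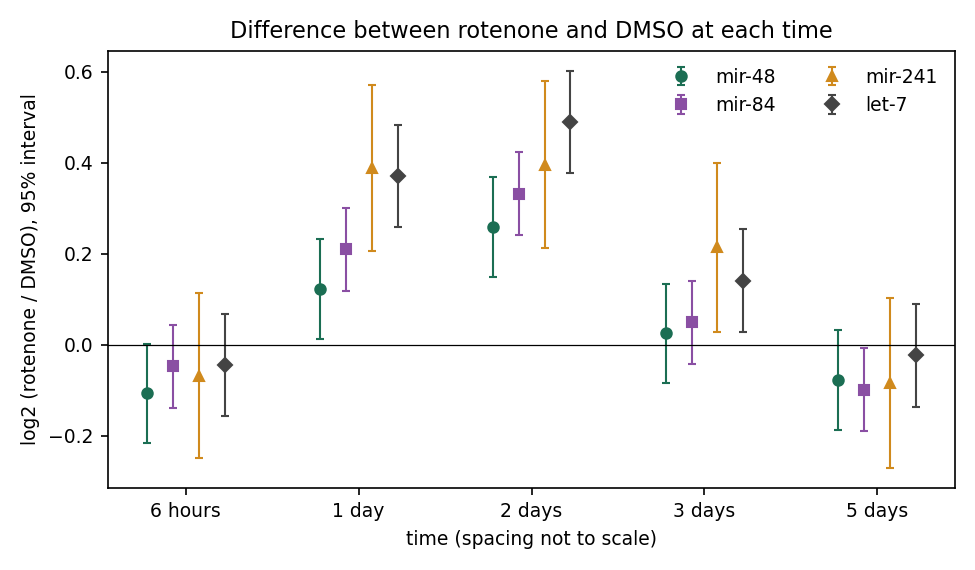
Log2 difference between rotenone and DMSO at each time for mir-48, mir-84, mir-241 and let-7, from the edgeR fit. Points are estimates and bars 95% intervals, and the line marks no difference. The 4 hairpins lie above 0 at 1 and 2 days, with values from 0.12 to 0.49, and below 0 at 6 hours and 5 days, with values from -0.11 to -0.02; with total counts the 6-hour values of mir-84 and mir-241 are above 0.

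At 6 hours the rotenone libraries held 17815, 20126 and 16990 CPM of mir-48, beside 18862, 20230 and 20041 CPM in DMSO, and the groups overlapped. The log2 difference was -0.11 ± 0.054 (adjusted p = 0.243). Without rotenone replicate 2, the highest of its group, it was -0.18 and passed (adjusted p = 0.0267). mir-84 and mir-241 differed by -0.05 ± 0.045 and -0.07 ± 0.089 (adjusted p = 0.624 and 0.749), and both signs turned with total counts. None of the sisters was called at 6 hours, against 11.9% of hairpins. Among the 13 markers 0 were higher and 5 lower in rotenone at this time, namely mir-35, mir-38, mir-39, mir-40 and mir-41. Their part in the values of the sisters was not tested.

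At 3 days 0 of the 3 sisters and 12.4% of hairpins were called. mir-48 differed by 0.03 ± 0.054 and mir-84 by 0.05 ± 0.045 (adjusted p = 0.767 and 0.468), and with total counts both values were below 0. mir-241 held 584, 599.95 and 444 CPM in rotenone and 463, 498 and 443 CPM in DMSO, so that 2 rotenone libraries lay above the DMSO group and 1 within it. Its log2 difference was 0.21 ± 0.092 (adjusted p = 0.118, 95% interval 0.03 to 0.40). Without that lowest library, rotenone replicate 3, it was 0.34 and passed (adjusted p = 0.0156). Of the 13 markers 4 were higher at 3 days, all of the mir-35 family.

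At 5 days the signs pointed the other way for all 3 sisters, and none was called, against 1.04% of hairpins. mir-48 held 19971, 19864 and 20333 CPM in rotenone and 21016, 21993 and 20465 CPM in DMSO. mir-84 held 5696, 5774 and 5624 CPM in rotenone and 6071, 6288 and 5945 CPM in DMSO. For these sisters every rotenone library was below every DMSO library, as for 12.4% of hairpins, but the log2 differences of -0.08 ± 0.054 and -0.10 ± 0.045 did not pass (adjusted p = 0.677 and 0.322). mir-241 overlapped, at 677, 583 and 513 CPM against 646, 683 and 548 CPM, with a difference of -0.08 ± 0.092 (adjusted p = 0.807).

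A test that the 5 differences between rotenone and DMSO are equal was past the threshold for all 3 sisters, as for 45.1% of tested hairpins. The adjusted p of this F-test was 0.000796 for mir-48, 3.77e-06 for mir-84 and 0.00172 for mir-241. That of mir-48 rose to 0.0784 without the filter on low counts and to 0.080 without DMSO replicate 2 of 1 day. Averaged over the 5 times, the log2 difference was 0.09 ± 0.020 for mir-84 (adjusted p = 0.00127), 0.17 ± 0.041 for mir-241 (adjusted p = 0.00224) and 0.04 ± 0.024 for mir-48 (adjusted p = 0.177), where 8.29% of hairpins were higher. A fit with treatment, time and lane as additive terms gave 0.067 for mir-84 and 0.13 for mir-241, and neither passed (adjusted p = 0.197 and 0.107). On average 0 of the 13 markers were higher and 3 lower in rotenone, namely mir-228 (-0.21 ± 0.047), lsy-6 (-0.16 ± 0.042) and mir-41 (-0.14 ± 0.040), and their part in the averages of the sisters was not tested.

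Libraries of H2O give a further control at 1 and 5 days. The comparisons of rotenone with H2O and with DMSO share the rotenone libraries, so their values stand side by side and are not separate evidence. At 1 day mir-48 held 12574, 14150 and 13869 CPM in H2O, mir-84 held 3263, 3260 and 3430 CPM and mir-241 held 777, 848 and 812 CPM. All were below the rotenone libraries of their sister, as was found for 21.8% of hairpins. The log2 difference between rotenone and H2O was 0.17 ± 0.054 for mir-48 (adjusted p = 0.0295), 0.15 ± 0.045 for mir-84 (adjusted p = 0.02) and 0.30 ± 0.090 for mir-241 (adjusted p = 0.0232), where 8.29% of hairpins were higher. All 3 calls were lost with total counts (0.088, 0.069 and 0.22) and with DESeq2 size factors (0.14, 0.12 and 0.27). Leaving out any 1 of the 6 libraries compared ended at least 1 of them, and without H2O replicate 1 all 3 were lost, at 0.12, 0.14 and 0.27.

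At 5 days rotenone and H2O differed by -0.11 ± 0.054 for mir-48, -0.13 ± 0.045 for mir-84 and 0.05 ± 0.092 for mir-241 on the log2 scale, and none passed (adjusted p = 0.406, 0.158 and 0.875), where 1.04% of hairpins did. For mir-48 and mir-84 the rotenone libraries lay below those of H2O, as for 14% of hairpins. DMSO and H2O differed by -0.09 to 0.05 at 1 day and by -0.03 to 0.13 at 5 days across the sisters, with adjusted p between 0.708 and 0.926. At 1 day the DMSO libraries of mir-84, at 3111 to 3254 CPM, lay just below those of H2O, at 3260 to 3430 CPM. edgeR called 0 of 193 hairpins (0%) between these controls at either time. At an unadjusted p under 0.05 there were 14 at 1 day and 8 at 5 days, and DESeq2 called 1 and 0.

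Ratios within libraries were also compared between rotenone and DMSO, over the 5 times, by exact two-sided permutation within each time and adjusted over 6 ratios. The log2 ratio mir-241/mir-48 was higher in rotenone by 0.12 (adjusted exact p = 0.0443), with the same sign at 4 of 5 times. This call was lost without any 1 of the times 6 hours, 1 day, 2 days and 3 days, where the difference ranged from 0.087 to 0.14, and without any of 16 of the 30 libraries. The ratio mir-84/mir-48 differed by 0.05 and mir-84/mir-241 by -0.08 (adjusted exact p = 0.0876 and 0.108).

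Beside let-7, mir-48 was lower in rotenone by 0.14 on the log2 scale (a difference of -0.14, adjusted exact p = 7.12e-05), with the same sign at 5 of 5 times. For mir-84 the difference was -0.10 (adjusted exact p = 0.00205), with the same sign at 4 of 5 times. The ratio mir-241/let-7 differed by -0.02 (adjusted exact p = 0.666). The rotenone difference of mir-48 and mir-84 was thus below that of let-7, and for mir-241 no such gap was detected at this precision.

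The family of let-7 gives the context of these values. It comprises let-7, the sisters, mir-793, mir-794, mir-795 and mir-1821, and all 8 were tested. At 1 day 6 of the 8 were higher in rotenone than in DMSO and 0 lower, with a median log2 difference of 0.32. Over all tested hairpins 10.4% were higher and the median was 0.01. Outside the sisters these were let-7 (0.37 ± 0.056), mir-793 (0.32 ± 0.085), mir-794 (0.31 ± 0.069) and mir-795 (0.35 ± 0.074), with adjusted p between 1.57e-05 and 0.00614. At 2 days 6 were higher and 1 lower, with a median of 0.29, beside 21.2% higher and a median of 0.02 over all tested hairpins. Without the sisters 3 of 5 were higher and 1 lower, with a median of 0.26. The lower one was mir-793, at -0.25 ± 0.085 (adjusted p = 0.0189), while let-7 had the largest rise in the family, at 0.49 ± 0.056 (adjusted p = 7.04e-09).

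At 3 days 1 of the 8 was higher, beside 8.29% of all tested hairpins. It was mir-794, at 0.23 ± 0.070 (adjusted p = 0.0252), and let-7 stood at 0.14 ± 0.056 (adjusted p = 0.0884). At 6 hours and 5 days 0 of the 8 were called in either direction, beside 11.9% and 1.04% of all tested hairpins. In DMSO from 6 hours to 1 day 8 of the 8 fell, with a median of -0.80, beside 34.7% falling and a median of -0.08 over all tested hairpins, and let-7 fell by 1.23 ± 0.056.

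Among 6 heterochronic miRNAs, namely let-7, the sisters, lin-4 and its relative mir-237, 3 were higher in rotenone at 1 day and 5 at 2 days, with 0 lower, beside 10.4% and 21.2% of all tested hairpins. Without the sisters these were 1 of 3 (let-7) and 2 of 3 (let-7 and mir-237). lin-4, which represses lin-14 and so starts the pathway, was not called at any time, with values from -0.13 to 0.12. mir-237 was higher at 2 days (0.26 ± 0.064, adjusted p = 0.00149) and lower at 3 days (-0.22 ± 0.064, adjusted p = 0.0207).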

How the data were processed

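Per the labels' protocols, whole-worm RNA was made into libraries using the TruSeq kit for small RNA. The authors deposited raw read counts per miRNA hairpin, 250 hairpins in 36 libraries, not split into arms. The submitters' processing notes name SAMtools 1.3.1-9, BWA 0.7.12-r1039, Trimmomatic 0.36 and bcl2fastq 1.8.4. Not given in the sources used here are the genome build, the annotation and the handling of multiply mapped reads. Of 250 IDs, 210 matched a RefSeq symbol. No molecular identifiers are named.

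In R 4.3.3, filterByExpr at a minimum count of 10 kept 193 hairpins. TMM factors ran from 0.854 to 1.16. One edgeR 4.0.16 quasi-likelihood model had a mean per group and 24 residual degrees of freedom, and p-values were adjusted by Benjamini-Hochberg, threshold 0.05. Log2 ratios of counts within a library were tested by exact permutation in Python 3.11.15. Replicates differed beyond sampling noise in every group (chi-square per degree of freedom at least 19.4). The procedure was tested on simulated data. Named are the sisters, members of the let-7 family and heterochronic lists, tissue markers, and the 3 hairpins most like each sister. Where DMSO or rotenone groups shared a lane, comparisons were added after values were seen, as were ratio tests over time. Members and lists were chosen with earlier results of these data known. Alternatives were other scalings, fits without the filter or with fewer groups, DESeq2 1.42.0, a replicate block, an additive lane term, and each library or time left out.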

Additional observations from a re-analysis of the deposited data

Results flagged for a closer look

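The difference between rotenone and DMSO changed with time for each sister, by an F-test over the 5 times in edgeR's quasi-likelihood fit. The adjusted p was 0.000796 for mir-48, whose log2 difference went from -0.11 at 6 hours to 0.26 at 2 days and -0.08 at 5 days. For mir-84 it was 3.77e-06, with log2 differences of -0.05, 0.33 and -0.10 at the same times. For mir-241 it was 0.00172, with -0.07, 0.40 and -0.08. Since 45.1% of tested hairpins passed the same test, and the lanes of both treatments differed at each time, lane and treatment cannot be told apart here.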

How the results depend on the processing

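Correlations did not show that replicate numbers pair libraries, and with 3 libraries per group they cannot exclude it. Of 15 pairs of same-numbered libraries, 4 had deviations correlated over 0.1 (r from -0.227 to 0.148), and 6 of 15 correlated best with their own number. With the replicate block, the values of the sisters kept direction and side of the threshold (mir-84 at 2 days 0.33, mir-48 at 1 day 0.12), and hairpins called between rotenone and H2O at 5 days went from 2 to 8.

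All other values are log2 differences unless named as adjusted p. With DESeq2 size factors, rotenone against H2O at 1 day gave 0.14 for mir-48, 0.12 for mir-84 and 0.27 for mir-241, none past the threshold, and mir-48 from 1 to 2 days in rotenone gave -0.11. DESeq2's Wald test lost the same comparisons of mir-48, at 0.14 and -0.11. Total counts lost rotenone against H2O at 1 day (0.088, 0.069 and 0.22 in the same order), mir-84 against DMSO at 1 day (0.13), mir-241 from 3 to 5 days (0.21) and from 2 to 5 days (0.18) in DMSO, and mir-48 from 1 to 2 days (-0.10) and mir-84 from 2 to 3 days (0.11) in rotenone. They brought mir-241 from 2 to 3 days in rotenone past the threshold (-0.24) and turned the sign of uncalled values, namely mir-84 (0.037) and mir-241 (0.012) at 6 hours, mir-48 (-0.065) and mir-84 (-0.041) at 3 days, and mir-241 from 2 to 3 days in DMSO (-0.027). Without the filter, mir-84 and mir-241 at 6 hours were 0.050 and 0.031 and turned sign, rotenone against H2O at 1 day lost mir-48 (0.19) and mir-84 (0.18), and the test between times of mir-48 had adjusted p = 0.0784. With only the groups compared, the same values at 6 hours were 0.030 and 0.0063, rotenone against H2O lost mir-48 (0.13) and mir-84 (0.11), and mir-48 from 2 to 3 days in rotenone passed (0.12). Total counts moved the median of all hairpins by -0.178 from 6 hours to 1 day and by -0.104 from 2 to 3 days in rotenone, and by -0.21, -0.209 and -0.10 from 1 to 5 days in DMSO, H2O and rotenone. With lane as an additive term the average of mir-84 was 0.067 and that of mir-241 0.13, neither called.

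The ratio mir-241/mir-48 lost its call without 6 hours (0.14), 1 day (0.087), 2 days (0.12) or 3 days (0.11), and mir-84/mir-48 gained one without 5 days (0.062).

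Leaving out 1 library at a time, rotenone against H2O at 1 day ranged from 0.12 to 0.21 for mir-48, 0.14 to 0.18 for mir-84 and 0.26 to 0.34 for mir-241, and each lost its call without some library. Rotenone against DMSO ranged from -0.18 to -0.059 for mir-48 at 6 hours, and for mir-241 from 0.14 to 0.34 at 3 days and from -0.20 to 0.0097 at 5 days. The adjusted p of mir-48 between times ranged from 4.24e-05 to 0.080. DMSO against H2O at 1 day ranged from -0.0021 to 0.087 for mir-48, and rotenone against H2O at 5 days from -0.070 to 0.14 for mir-241. For mir-241, 2 to 3 days ranged from -0.0055 to 0.11 in DMSO and from -0.22 to -0.017 in rotenone, 3 to 5 days in rotenone from -0.0088 to 0.21 and 1 to 5 days in DMSO from -0.35 to -0.20. The ratios ranged from 0.10 to 0.15 (mir-241/mir-48, adjusted exact p = 0.00964 to 0.0987), 0.032 to 0.059 (mir-84/mir-48), -0.10 to -0.057 (mir-84/mir-241) and -0.040 to 0.0061 (mir-241/let-7). The call of mir-241/mir-48 was lost in 16 of 30 such fits, mir-84/mir-48 passed in 3 (without rotenone replicate 2 of 6 hours, DMSO replicate 2 of 3 days or rotenone replicate 3 of 5 days) and mir-84/mir-241 in 2 (without rotenone replicate 3 of 3 or of 5 days). The cause of these changes was not tested.

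Hairpins called at 6 hours went from 23 to 13 with DESeq2 size factors, 10 with total counts, 8 without the filter and 0 with only the groups compared, and to between 10 and 17 with 1 library left out. Rotenone against H2O at 1 day went from 23 to between 13 and 21 with 1 library left out, and the averaged comparison went from 43 to 19 with the lane term. At 5 days rotenone differed from DMSO at 0 to 3 hairpins over the libraries left out, and from H2O at 4 with DESeq2 and 0 to 5 over the libraries left out. At 3 days 10 to 21 hairpins were called over the libraries left out, beside 24 with all.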
